A study of Rattus norvegicus with 3 samples.

Results

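The comparison described here is that of rat alveolar macrophages exposed to CNT-1, a preparation of single-wall carbon nanotubes, with control cells. Both were cultures of NR8383, an established line of rat alveolar macrophages, the phagocytes of the lung surface, and the labels give no genotype change for either. CNT-1 was given for 24 h at 0.1 mg/mL in a working solution with 1 mg/mL bovine serum albumin, and Cy3-labelled cRNA made from total RNA was read on 1-colour Agilent arrays. The control was kept for 24 h too, but the labels call it untreated in 1 field and a solvent control with albumin in another, so that an effect of albumin and an effect of CNT-1 cannot be told apart. The members were all genes with a named probe: 20932 of 41103 probes carried 1 gene symbol of the platform annotation and stood for 15930 genes. The comparison used 2 of the 3 deposited columns, and the third column, of cells exposed to a second preparation called CNT-2, is given beside it only as a value. The CNT-1 and CNT-2 differences share the control column.

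Each group had 1 column, so no difference below was tested and no replicate error exists. The values had been centred per probe by the authors on a baseline that is not stated, so the columns show how far a probe lies from that baseline and not how strongly a gene is expressed. They were presumed to be log2 values, with a higher value taken as more RNA, and all values below are on that scale. A gene's difference is CNT-1 minus control averaged over its probes. Where a gene had several probes, the SD over probes is given, which is technical spread within the 2 columns. A gene counted as higher or lower when it differed by at least 1 log2 unit, a 2-fold change on the presumed scale.

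Macrophages that take up particles enclose them in membrane that fuses with lysosomes, and they draw on cholesterol and fatty acids to build and mend membranes. Cholesterol is made from acetyl-CoA through mevalonate and squalene. The genes of this route are switched on together by the SREBP transcription factors, which the escort protein Scap carries to the Golgi for cleavage when sterols run low and which the Insig proteins hold back when sterols are plentiful. Oxidised sterols act in the other direction through the LXR receptors, which turn on cholesterol export, and fatty acids act through the PPAR receptors, which turn on fat storage and oxidation. Macrophages also answer particles with chemokines, cytokines and eicosanoids, the lipid mediators made from arachidonic acid.

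Over all 15930 genes the median difference was -0.04, 6703 genes (42.1%) lay above 0 and 13833 genes (86.8%) lay within 0.5 of 0. At the threshold, 184 genes (1.16%) were higher and 343 (2.15%) lower in CNT-1, so that 34.9% of the genes past it were higher. This split moved with the processing, without any setting isolating the cause: 45.9% were higher after quantile normalization of the columns, 52.0% when only probes near 0 in the control were used, and 55.5% when the CNT-1 column was taken alone. The genes were split by where their probes lay in the control column. In 10800 genes (67.8%) every probe had a control value within 0.1 of 0, called near-0 genes below. In 4196 genes (26.3%) no probe did, called off-0 genes, and 934 genes (5.86%) had probes of both kinds.

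The near-0 genes were balanced between the directions. Their median difference was 0.002, with quartiles at -0.14 and 0.13, and 112 genes (1.04%) were higher and 96 (0.889%) lower. Since the control values of these genes were chosen to lie near 0, a gene past the threshold necessarily had a CNT-1 value far from 0. Among the off-0 genes the median difference was -0.26, and 64 (1.53%) were higher and 230 (5.48%) lower. Of those 230 genes, 204 had a control value above 0.1 and only 76 had a CNT-1 value of -1 or below. The remaining genes, with probes of both kinds, had 8 higher (0.857%) and 17 lower (1.82%).

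The named probes outside the window were of 3 kinds. On 3036 named probes (14.5%) the control value lay within 0.02 of that of the array's negative control, which stood at 0.16 in the control, -0.11 in CNT-1 and 0.05 in CNT-2. The median over these background-like probes was 0.15 in the control and -0.10 in CNT-1, and 51 were higher and 15 lower. The 10 E1A spike-in probes, which report RNA added at known amounts, had a median difference of -0.02. A further 1726 probes lay above 0.1 in the control by other amounts, and 281 of them (16.3%) were lower, of which 70 had a CNT-1 value of -1 or below. Finally, 976 probes lay below -0.1 in the control, with 13 higher and 42 lower.

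The share of lower probes differed along the control value, a relation partly built in because the control value is subtracted. Just inside the window, 340 probes with a control value between 0.08 and 0.1 had a median difference of -0.15, with 10 higher and 6 lower. Just outside it, 323 probes between 0.1 and 0.12 had a median of -0.18, with 10 higher and 8 lower. Probes on both sides of the edge thus had close values. Between 0.12 and 0.2 in the control 1.03% of 3386 probes were lower, between 0.2 and 0.3 9.77%, between 0.3 and 0.5 12.3%, between 0.5 and 1 40.4%, and between 1 and 3 59.2%, with 0 higher among the 98 probes of the last bin. Those 98 probes had a median of 1.17 in the control and -0.01 in CNT-1. Below 0 the share of lower probes was larger too, at 9.38% of 128 probes between -0.3 and -0.2 and 14.6% of 41 between -0.5 and -0.3, and 3 of the 4 probes between -1 and -0.5 were lower.

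**Figure D1:**
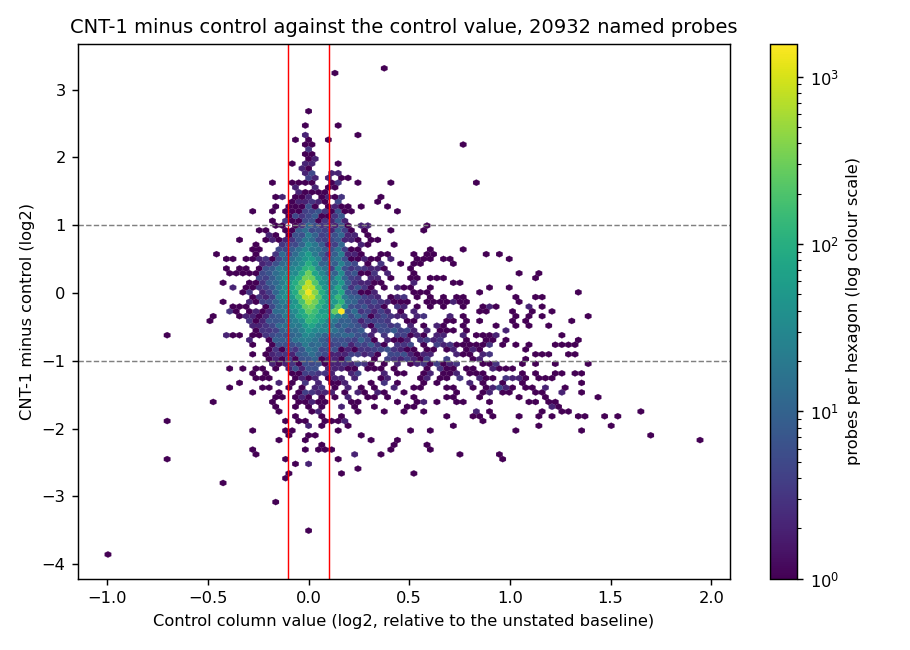
The control value of the 20932 named probes (x axis, presumed log2, centred by the authors) is plotted against CNT-1 minus control (y axis, log2), with the number of probes per hexagon as colour on a log scale, the window of 0.1 as red lines and the threshold of 1 as dashed lines. Probes above 0.5 in the control lie mostly below 0 on the y axis. The probes within 0.08 of 0 in the control scatter about evenly around 0, with a median of 0.009. Those between 0.08 and 0.1 have a median of -0.15.

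**Figure D2:**
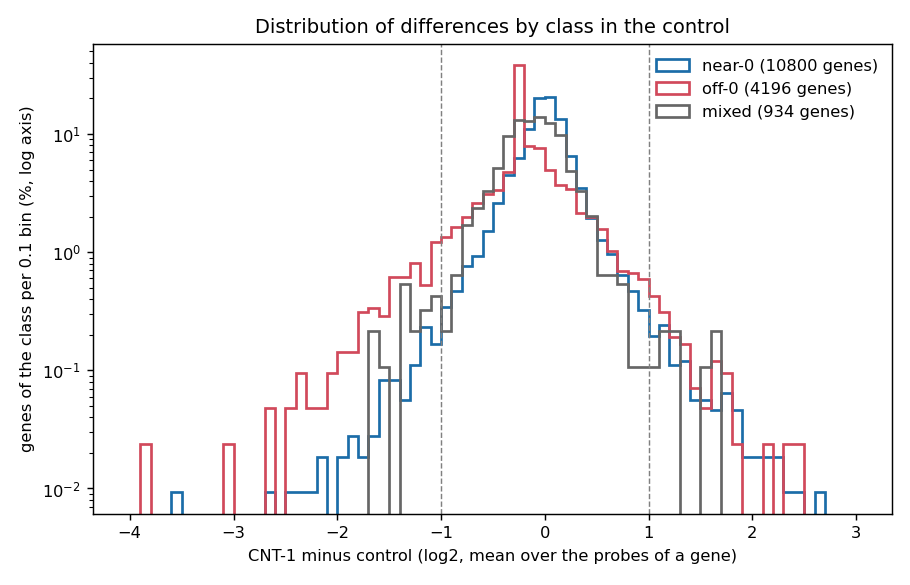
The distribution over genes of CNT-1 minus control (log2) is drawn for near-0, off-0 and mixed genes as the percentage of the class per bin of 0.1 on a log axis, with the threshold of 1 as dashed lines. The near-0 genes are centred on 0.002, while the off-0 genes are centred on -0.26 with a longer tail below.

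Genes read by several probes give the only check of a value within these columns. Among the near-0 genes 2586 had at least 2 probes, and the median SD over the probes of a gene was 0.05. Past the threshold were 14 higher and 11 lower of them, and in all 25 the probes had 1 sign, with every probe past the threshold in 14. Among 387 off-0 genes with at least 2 probes the median SD was 0.22, and 1 was higher and 8 lower, with every probe past the threshold in 2. The probes of an off-0 gene thus spread more widely. The most even gene sets were the ribosomal proteins: the 81 of the cytosolic ribosome, all near-0 genes, lay between -0.22 and 0.15.

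The group farthest above 0 in CNT-1 was sterol synthesis. Of 18 measured enzymes of the route from acetyl-CoA to cholesterol, 14 were higher by at least 1 log2 unit, against 1.16% of all genes. The lowest was Ggps1, which was counted with the route although it branches off it, and it differed by 0.22. The median was 1.62 over the 8 enzymes of the part up to squalene, Ggps1 included. It was 1.76 over the 10 that lead from squalene to cholesterol, against -0.04 over all genes. Every measured enzyme lay above 0, and 17 of the 18 were near-0 genes, the other being Acat2. The list up to squalene named 10 genes. No enzyme of the steps between Acat2 and Mvk, which make mevalonate, was among the 8 measured. These genes were known from earlier results of the same columns to be high, so the counts describe them and support nothing.

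At the head of the route, Acat2, which joins acetyl-CoA units, stood at 0.18 in the control, 1.87 in CNT-1 and 1.83 in CNT-2, a CNT-1 difference of 1.69 ± 0.62 (SD, 2 probes). Mvk and Pmvk, the kinases that phosphorylate mevalonate, stood at 0.01 and -0.009 in the control and at 0.96 and 0.98 in CNT-1. Mvd, which removes the carboxyl group of mevalonate, was at 0.03 in the control and 1.58 in CNT-1, a difference of 1.55. These kinases were the early enzymes that stayed just under the threshold. Idi1, which isomerises the first isoprene unit, was at 0 in the control, 2.08 in CNT-1 and 3.36 in CNT-2, and its CNT-1 difference was 2.08 ± 0.11 (SD, 2 probes). Fdps, which links isoprene units to farnesyl diphosphate, was at 0.002, 1.84 and 2.78 in the same order, with a difference of 1.84 ± 0.08 (SD, 2 probes). Ggps1, which sends the same units towards protein prenylation instead of squalene, differed by only 0.22.

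Fdft1, the synthase that makes squalene, stood at -0.07 in the control, 2.21 in CNT-1 and 3.12 in CNT-2. Sqle, the epoxidase that commits squalene to sterols, stood at 0.01, 2.13 and 3.08. Lss, which closes the sterol rings, was at -0.08, 1.57 and 3.01. In each of these enzymes the CNT-1 value lay between the control and the CNT-2 value. The demethylation steps were read by Msmo1 (difference 2.01), Nsdhl (1.16), Hsd17b7 (1.80 ± 0.14, SD, 2 probes) and Cyp51 (1.71). The reductases and the desaturase of the last steps included the highest upward difference of the near-0 class: Tm7sf2, a sterol reductase, was at 0.002 in the control, 2.66 in CNT-1 and 3.20 in CNT-2. Sc5d, the desaturase, stood at -0.004, 2.35 and 3.67, and Dhcr7, the last reductase, at 0.04, 1.25 and 1.80. Ebp, the isomerase between them, differed by 0.46 in CNT-1.

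The SREBP control genes differed from the enzymes. Of 10 measured members 1 was past the threshold, and the median was 0.20. That member was Insig1, the SREBP target that retains the Scap complex: its 4 probes averaged 0 in the control, 2.20 in CNT-1 and 3.62 in CNT-2, a CNT-1 difference of 2.20 ± 0.12 (SD, 4 probes). Srebf2, which encodes the SREBP factor of sterol genes, differed by 0.84 ± 0.24 (SD, 2 probes), and Stard4, a sterol carrier, by 0.74. Mylip, a ubiquitin ligase and LXR target, lay on the other side at -0.68 ± 0.08 (SD, 2 probes). Srebf1 (0.07 ± 0.28, SD, 3 probes) and Scap (-0.01) lay near 0. The 13 LXR targets had a median of 0.01, which became -0.045 when columns were centred on their 75th percentile, and none was past the threshold. Ch25h, which makes an oxidised sterol, differed by 0.73, and Abca1, the main cholesterol exporter, by 0.12.

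The promoters of the sterol genes are shown because these genes moved together and because SREBP is known to act with the factors NF-Y and Sp1. RefSeq's promoter table of assembly GRCr8 held 16 of 19 genes, the 18 enzymes and Insig1, and the 250 bases before the start of each were searched on both strands. The motifs marked were CCAAT for NF-Y, GGGCGG for Sp1, CACGTG for an E-box and TCACNCCAC for the sterol regulatory element. The 4 genes shown are the near-0 genes of the route and Insig1 that were read by at least 2 probes, and capitals mark matches to any of these motifs, on either strand. The sequences read 5′ to 3′ towards the gene's start.
Insig1, chr4:8057770-8058019, minus strand: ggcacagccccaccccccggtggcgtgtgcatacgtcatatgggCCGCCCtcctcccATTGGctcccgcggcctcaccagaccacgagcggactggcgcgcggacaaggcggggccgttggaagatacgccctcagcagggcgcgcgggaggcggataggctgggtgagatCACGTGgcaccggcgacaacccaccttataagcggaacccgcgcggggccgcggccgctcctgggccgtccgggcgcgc
Idi1, chr17:66547525-66547774, minus strand: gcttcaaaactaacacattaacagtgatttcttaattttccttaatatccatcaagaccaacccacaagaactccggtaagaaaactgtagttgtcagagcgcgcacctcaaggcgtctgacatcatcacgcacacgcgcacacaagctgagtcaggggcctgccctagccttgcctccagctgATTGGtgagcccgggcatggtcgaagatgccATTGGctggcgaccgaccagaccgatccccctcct
Fdps, chr2:176804817-176805066, minus strand: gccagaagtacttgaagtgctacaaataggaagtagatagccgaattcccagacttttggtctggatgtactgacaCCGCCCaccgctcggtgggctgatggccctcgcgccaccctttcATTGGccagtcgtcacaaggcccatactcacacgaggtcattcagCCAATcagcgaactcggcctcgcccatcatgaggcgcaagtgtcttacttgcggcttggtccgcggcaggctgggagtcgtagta
Hsd17b7, chr13:84722755-84723004, minus strand: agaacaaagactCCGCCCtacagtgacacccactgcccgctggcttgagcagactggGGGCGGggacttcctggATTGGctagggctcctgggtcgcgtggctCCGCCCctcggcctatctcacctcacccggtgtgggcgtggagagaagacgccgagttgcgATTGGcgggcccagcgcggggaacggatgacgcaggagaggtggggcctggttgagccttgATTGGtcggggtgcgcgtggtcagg
CCAAT stood in 13 of the 16 promoters (81.2%), against 35.2% of the promoters of 13140 genes on the array. It stood in 33.3% of the 141 promoters of higher genes and in 42.5% of the 87 of higher near-0 genes. Acat2, Cyp51 and Dhcr7, all past the threshold, had no CCAAT, while Mvk, Ebp and Ggps1, all under it, had it. GGGCGG stood in 81.2% of the 16 and in 48.3% of all, with 46.1% for higher genes and 49.4% for higher near-0 genes. CACGTG stood in 2 of the 16 (12.5%) and in 7.1% of all. The sterol element as spelled was in 0 of the 16 and in 0.9% of all, which says only that these letters were not in this window. Searched but not marked were an NF-kappaB site (0 of the 16, 0.4% of all) and a cAMP response element (0 of the 16, 2.3% of all). An AP-1 site, searched too, was in 2 of the 16 (12.5%) and in 5.3% of all. Whether any motif bears on the differences was not tested.

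**Figure D3:**
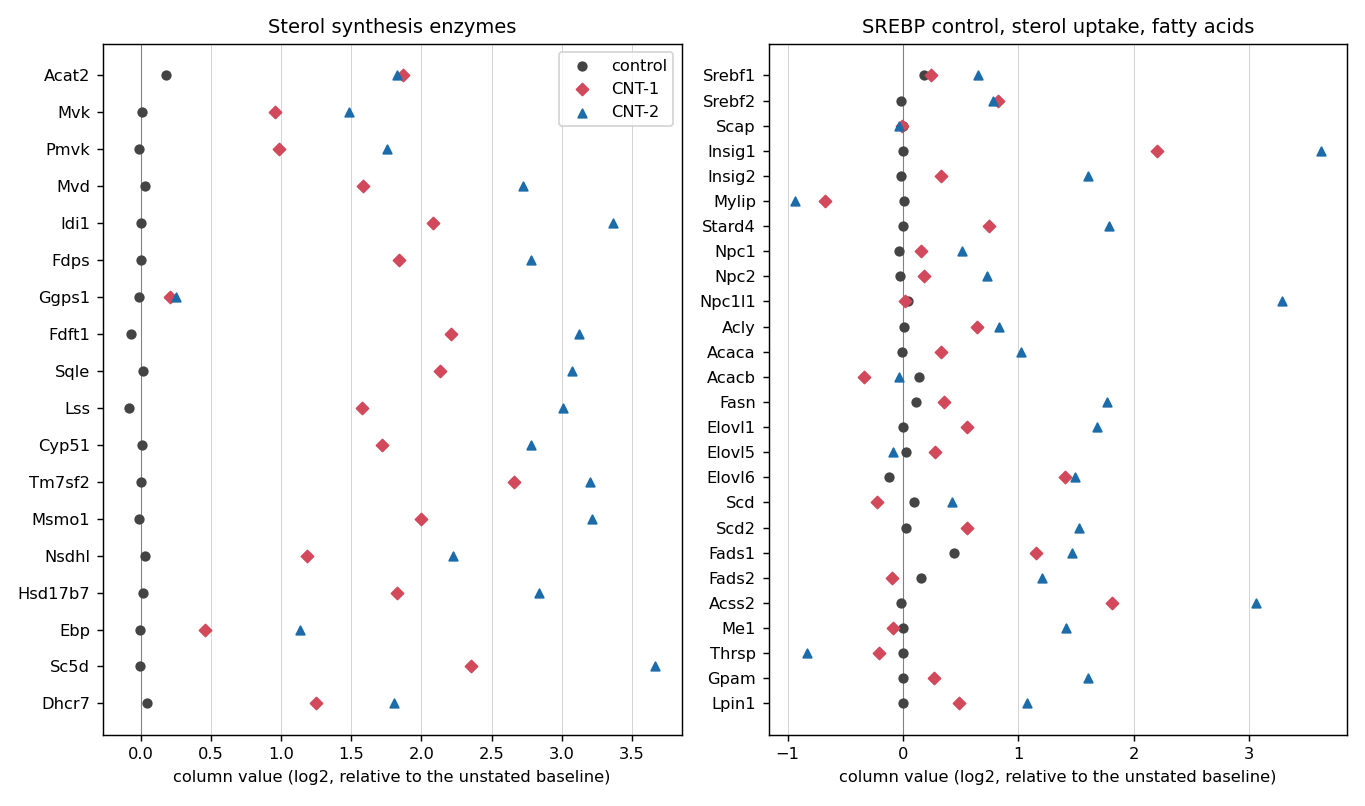
For each sterol enzyme (left panel) and each SREBP control or fatty acid gene (right panel) the value in the control, CNT-1 and CNT-2 columns is plotted on the x axis (presumed log2, centred by the authors), 1 row per gene. All CNT-1 points of the sterol enzymes lie to the right of the control points, by 0.22 for Ggps1 and up to 2.65 for Tm7sf2.

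Fatty acid synthesis was less uniform. Of 16 measured genes 2 were higher, against 1.16% of all genes, and the median was 0.30. Acss2, which makes acetyl-CoA from acetate and is an SREBP target, stood at -0.02 in the control, 1.81 in CNT-1 and 3.06 in CNT-2. Elovl6, which lengthens fatty acids, stood at -0.12, 1.40 and 1.49, a CNT-1 difference of 1.52 ± 0.16 (SD, 2 probes). The central enzymes of the route lay lower: Acly, which makes cytosolic acetyl-CoA, differed by 0.64, Acaca, the rate-setting carboxylase, by 0.34 ± 0.07 (SD over probes) and Fasn, the fatty acid synthase, by 0.25 ± 0.49 (SD over probes). Scd, a desaturase, lay at -0.32. Fads1, another desaturase, differed by 0.71, but it is an off-0 gene with a control value of 0.44.

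Genes of fat storage and PPAR targets lay on both sides of 0. Of 18 measured, 1 was higher and 2 lower, against 1.16% and 2.15% of all genes. Their median of -0.02 became 0.02 with spike-in centring and 0.03 with quantile normalization. Fabp5, a fatty acid carrier that alveolar macrophages express, was at 0.02 in the control and 1.11 in CNT-1. Angptl4, a secreted inhibitor of lipoprotein lipase, was at 0 in the control, -2.18 in CNT-1 and -3.42 in CNT-2. Pdk4, the kinase that shuts pyruvate out of oxidation, was at -0.03, -2.01 and -2.71, a CNT-1 difference of -1.98 ± 0.78 (SD, 2 probes). Both are PPAR targets, while Cpt1a, the gate of mitochondrial fatty acid oxidation, differed by only -0.29.

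The list of prostanoid, leukotriene and nitric oxide synthesis held 3 members past the threshold, all in the lower direction. Of its 24 genes 3 were lower, against 2.15% of all genes, 0 were higher and the median was -0.11. Ptafr, the receptor for platelet-activating factor, is in the list but is not a synthesis enzyme. It stood at -0.007 in the control, -2.50 in CNT-1 and -1.76 in CNT-2. Alox5ap, which presents arachidonic acid to the lipoxygenase Alox5, stood at -0.01, -1.68 and -2.76. Ptgs1, the constitutive cyclooxygenase, stood at -0.01, -1.62 and -4.29. In Ptafr the CNT-1 value was the lowest of the 3 columns, and in the other genes the CNT-2 value was. Lta4h, which makes leukotriene B, differed by -0.87 and Alox5 by -0.51, whereas Ptgs2, the inducible cyclooxygenase, differed by -0.32 ± 0.06 (SD over probes) and Nos2, the inducible nitric oxide synthase, by 0.68.

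Chemokine genes were mixed, with 3 of 21 higher and 0 lower, against 1.16% and 2.15% of all genes. Their median of 0.13 became -0.10 over genes with at least 2 probes. Ccl4, a chemokine for monocytes and T cells, was at -0.03 in the control, 1.01 in CNT-1 and 4.43 in CNT-2. Cxcl1, a neutrophil chemokine read by a background-like probe, was at 0.15, 1.20 and 4.63. Cxcl14 had another order of columns, at -0.004, 1.21 and 0.18. Ccl3 (0.88), Ccl2 (0.88) and Cxcl2 (0.61) were higher by less than the threshold, and the interferon-inducible Cxcl10 lay at -0.83.

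Of 24 cytokine genes 2 were higher and 1 lower, against 1.16% and 2.15% of all genes. Their median of -0.03 became 0.006 with spike-in centring. Osm, oncostatin M, a cytokine of the interleukin-6 family, stood at 0.01 in the control, 1.78 in CNT-1 and 4.86 in CNT-2. Tnfsf15, a TNF family member, stood at 0.009, 1.11 and 2.10. Csf3, the granulocyte growth factor, was lower at 0.84, -0.35 and 0.71, so that the control and CNT-2 values of this off-0 gene were close and the CNT-1 value apart. Tnf differed by 0.88, Il1b by 0.71 ± 0.007 (SD, 2 probes) and Il1a by 0.61. Of 18 NF-kappaB genes none was past the threshold, and the feedback inhibitors Nfkbia (0.64) and Nfkbiz (0.66 ± 0.62, SD, 2 probes) were higher by less. The 16 inflammasome genes had a median of -0.19 and none was past the threshold, with the sensor Nlrp3 at -0.88. The 27 Fos, Jun, Egr and MAP kinase phosphatase genes had a median of -0.24, or 0.46 over those with at least 2 probes, and 1 of them was higher: Maff, a small bZIP factor, at -0.05, 1.32 and 5.34.

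Receptors and complement genes showed few members past the threshold. Among 23 C-type lectins, Fc and Toll-like receptors none was, with the nucleic acid sensor Tlr7 at 0.96, the lectin Clec4e at 0.94 and the lipopolysaccharide co-receptor Cd14 at -0.89 ± 0.01 (SD, 2 probes). Among 21 complement genes Itgam, a complement receptor subunit, was higher (1.02) and Cfp, properdin, lower, at 0.04 in the control, -1.09 in CNT-1 and -3.79 in CNT-2. The 18 scavenger and particle receptors had a median of -0.20 and none was past the threshold. Marco, which binds uncoated particles in alveolar macrophages, differed by 0.13, and Msr1, the class A scavenger receptor, by 0.40. Adora2b, an adenosine receptor, was the 1 purinergic gene past the threshold, at -0.01, -1.22 and -1.84. Of 35 interferon-stimulated genes 1 was lower, Oas1b at -1.09, a background-like probe, and the median was -0.14.

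Stress responses were mostly small. Of 21 NRF2 targets none was past the threshold, 17 lay above 0, against 42.1% of all genes, and the median was 0.14. The 42.1% includes the off-0 genes, with a median of -0.26, while the median over near-0 genes was 0.002. Of the 18 NRF2 targets that were near-0 genes 16 lay above 0. Slc7a11, the cystine importer, differed by 0.74, Hmox1, heme oxygenase, by 0.59 and Nqo1, a quinone reductase, by 0.36. Among 22 glutathione transferases Gstm1 stood at 0.09 in the control, 1.76 in CNT-1 and 0.65 in CNT-2, and it was the 1 member past the threshold. The median of that list was -0.02 and became positive with median, spike-in and quantile scaling. Of 29 genes of the integrated stress response 23 lay above 0, against 42.1% of all genes, and 19 of the 23 near-0 members did. The median was 0.10. Atf3, a stress-induced repressor, differed by 0.88, Ppp1r15a, which restores translation, by 0.85, and the amino acid carrier Slc7a3, read by a background-like probe, by 1.01. The 29 measured p53 targets and apoptosis genes had a median of 0.08, with Ddb2, a DNA damage sensor, at 0.999 just under the threshold.

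Glycolysis genes lay above 0 in 20 of 26 cases, against 42.1% of all genes, with a median of 0.26. Of the 22 near-0 members 18 lay above 0, where the median over all near-0 genes was 0.002. Slc16a3, the lactate exporter, was at 0.02 in the control, 1.82 in CNT-1 and 5.73 in CNT-2. Hk3, a hexokinase of myeloid cells, differed by 0.71, and Slc2a3, a glucose carrier, lay at -0.87. The 20 HIF targets had a median of 0.29. Epas1, a HIF subunit, was at 0.08, 1.29 and 0.09, so that CNT-1 stood apart from both other columns. Of 24 proton pump genes of the lysosome 19 lay above 0, against the same 42.1%, and 17 of the 21 near-0 members did. The median was 0.21, and Atp6v0d2, a subunit of phagocyte pumps, was higher at 1.07. Tcirg1, another subunit, differed by 0.64. The cathepsins had a median of -0.10 and none was past the threshold, Ctsh being farthest at -0.97.

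Cell division genes lay close to 0. The 27 mitosis genes ranged from -0.16 to 0.27 and the 34 DNA replication genes from -0.29 to 0.47, and none of either was past the threshold. The 37 oxidative phosphorylation genes ranged from -0.19 to 0.20. Of 15 reference genes, used in many studies to scale others, the lowest was Polr2a at -0.26 ± 0.01 (SD over probes) and the highest Tfrc at 0.34 ± 0.04 (SD, 3 probes). Actb differed by 0.02 ± 0.045 and Gapdh by 0.18 ± 0.02 (SD over probes).

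**Figure D4:**
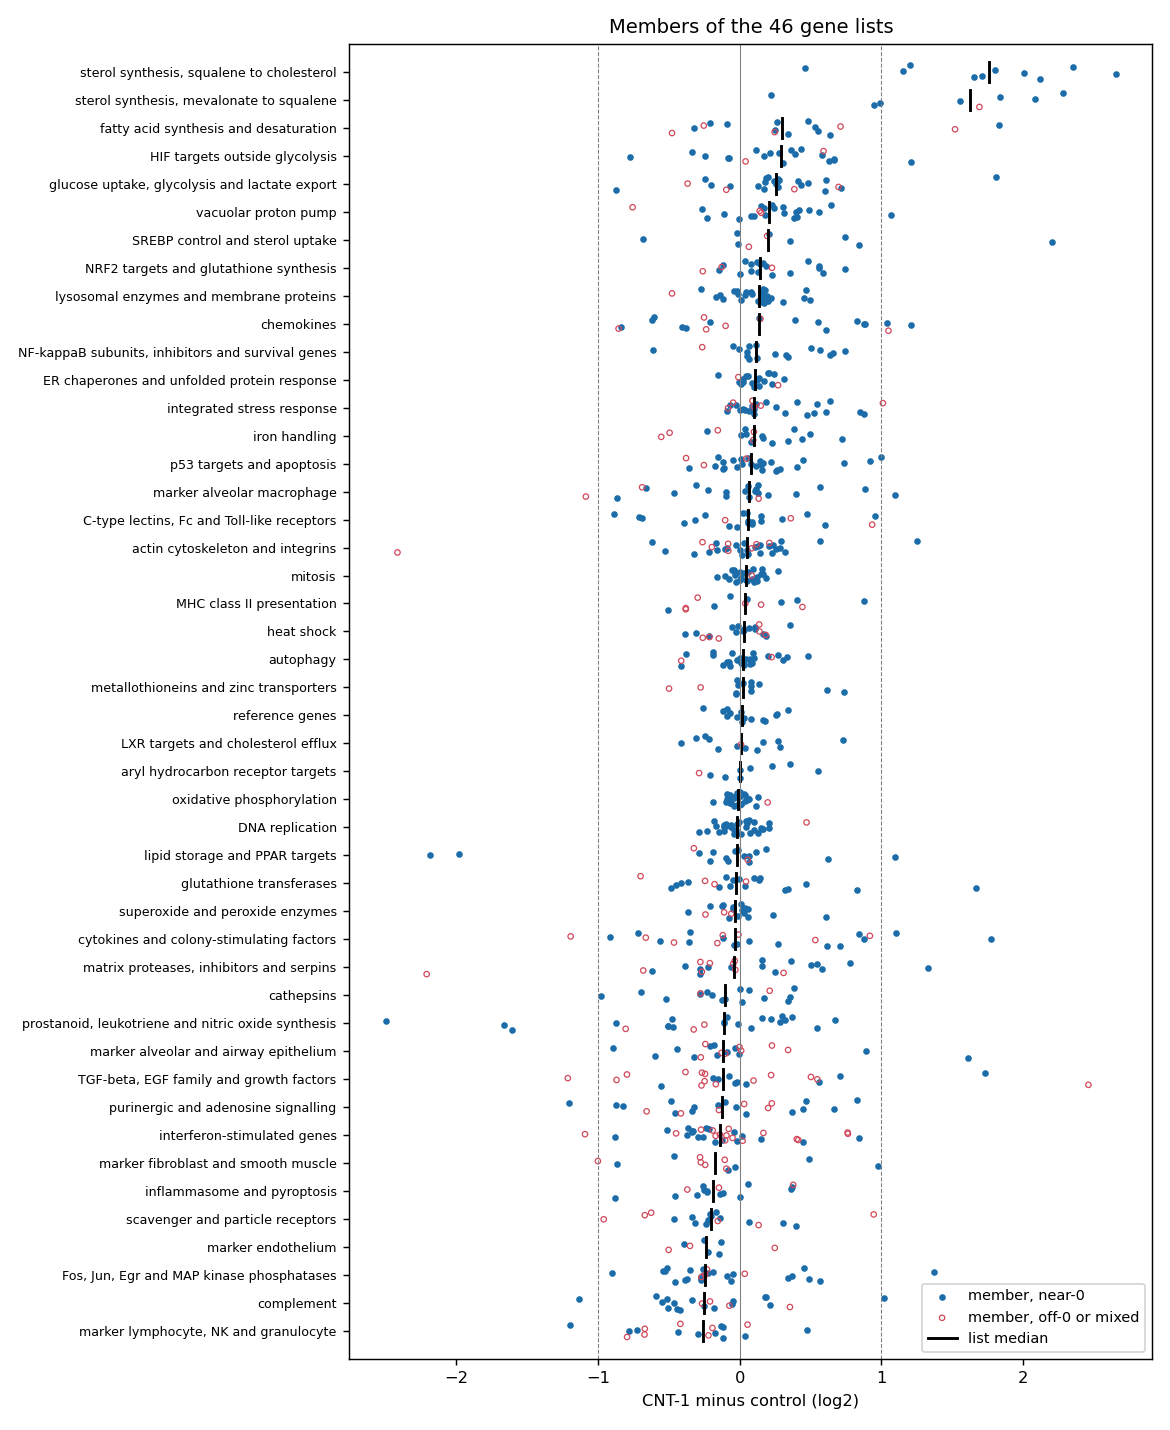
The median of CNT-1 minus control (log2) is drawn as a bar for each of 46 gene lists, with each member as a point, filled for near-0 genes. The 2 sterol synthesis lists lie farthest to the right, at 1.62 and 1.76, and all other lists have medians between -0.26 and 0.30.

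Growth factors, matrix and cytoskeleton genes held scattered members past the threshold. Gdf15, a stress-induced cytokine, was at -0.02 in the control, 1.71 in CNT-1 and 6.22 in CNT-2. Tgfa, an EGF family ligand and off-0 gene, was lower by -1.21, which turned to 0.13 after quantile normalization. Mmp14, a membrane-bound matrix protease, differed by 1.33, and Mmp1, an interstitial collagenase and off-0 gene, was at 0.60 in the control and -1.61 in CNT-1 and in CNT-2. Eps8, an actin-capping protein, differed by 1.25 ± 0.81 (SD, 3 probes). Its SD shows that the probes of this gene did not give 1 size of difference.

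The label of the cells was checked on marker genes, although centred values cannot show whether a gene is expressed. Of 22 measured alveolar macrophage markers none was read only by background-like probes, which made up 14.5% of named probes. The same held for 0 of 8 endothelial, 2 of 20 epithelial, 3 of 12 fibroblast and 3 of 18 lymphocyte, NK and granulocyte markers. Lacking such probes was thus not particular to macrophage markers. Besides Fabp5, Car4, a carbonic anhydrase, was past the threshold, at 1.01 in the control, -0.08 in CNT-1 and 1.81 in CNT-2. Among markers of other cell types, Epcam, an epithelial adhesion protein, was at -0.05, 1.56 and -0.36, Thy1 of fibroblasts lay at -1.0 and Elane of granulocytes at -1.20. The medians were -0.11 over 20 epithelial, -0.17 over 12 fibroblast, -0.23 over 8 endothelial and -0.26 over 18 lymphocyte, NK and granulocyte markers, and 0.06 over the macrophage markers, which turned to -0.02 as a mean of members and to -0.47 over genes with at least 2 probes. The part of other cell types in the results was not tested.

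The lists held only 935 of the 15930 genes, so most genes of any kind belonged to none. Among near-0 genes, 82 of the 112 higher and 88 of the 96 lower belonged to no list. The lowest near-0 gene was Tbpl2, a TBP-related factor of germ cells, at -0.001 in the control, -3.52 in CNT-1 and -2.52 in CNT-2. It was followed by Stard10, a lipid transfer protein (-2.67), by Ptafr, by Gas7 (-2.33), a cytoskeletal adaptor, and by the olfactory receptor Or6c1 (-2.22). Slit3, a guidance ligand, was at 0.007, -1.98 and -0.50, and Cyp4f4, a cytochrome P450 of eicosanoid breakdown, differed by -2.12. Among the highest near-0 genes that are not sterol enzymes were Grifin (2.47), a galectin-related protein of the lens, and Csrp3 (1.93), a muscle protein. Apln, the ligand of the apelin receptor, was at -0.005, 1.76 and 1.38, with a CNT-1 difference of 1.76 ± 0.02 (SD, 2 probes).

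The largest off-0 differences behaved differently in the columns. Prkcq, a protein kinase C of T cells, stood at -0.996 in the control, -4.85 in CNT-1 and -3.66 in CNT-2, the lowest difference of all genes. It became 0 after quantile normalization, which gives any probe of equal rank in both columns a difference of 0 by construction. Rln3, relaxin 3, stood at 0.96, -1.43 and -0.64, and Klhl10, a testis ubiquitin ligase adaptor, at 0.75, 2.93 and 0.64. Ndst1, a heparan sulfate enzyme, stood at -0.69 in the control and -3.13 in CNT-1, a difference of -2.44 that turned to 0.16 after quantile normalization. Ltbp1, which binds latent TGF-beta, was read by a background-like probe and stood at 0.14, 2.60 and 5.82. Axin2, a Wnt target, stood just outside the window at 0.10, 1.81 and 1.04.

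Olfactory receptors, which sense odorants in the nose, are 1 family of genes outside macrophage biology. Of 1095 olfactory receptor genes 30.5% were near-0 genes, against 67.8% of all genes, and 509 were read by background-like probes. Their median difference was -0.26, or -0.11 without subtracting the control, -0.43 after quantile normalization and -0.49 over those with at least 2 probes. Past the threshold were 7 higher and 52 lower, beside 1.16% and 2.15% of all genes and 1.53% and 5.48% of off-0 genes. Among the 334 olfactory receptors that were near-0 genes 0 were higher and 11 lower, beside 1.04% and 0.889% of all near-0 genes. Other families foreign to macrophages had medians below 0 too, at -0.23 for vomeronasal receptors, -0.25 for taste receptors and -0.20 for keratins. Past the threshold were 2 higher and 1 lower of 54 vomeronasal receptors, 1 and 0 of 16 taste receptors, and 0 and 0 of 40 keratins. The negative control differed by -0.27.

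**Figure D5:**
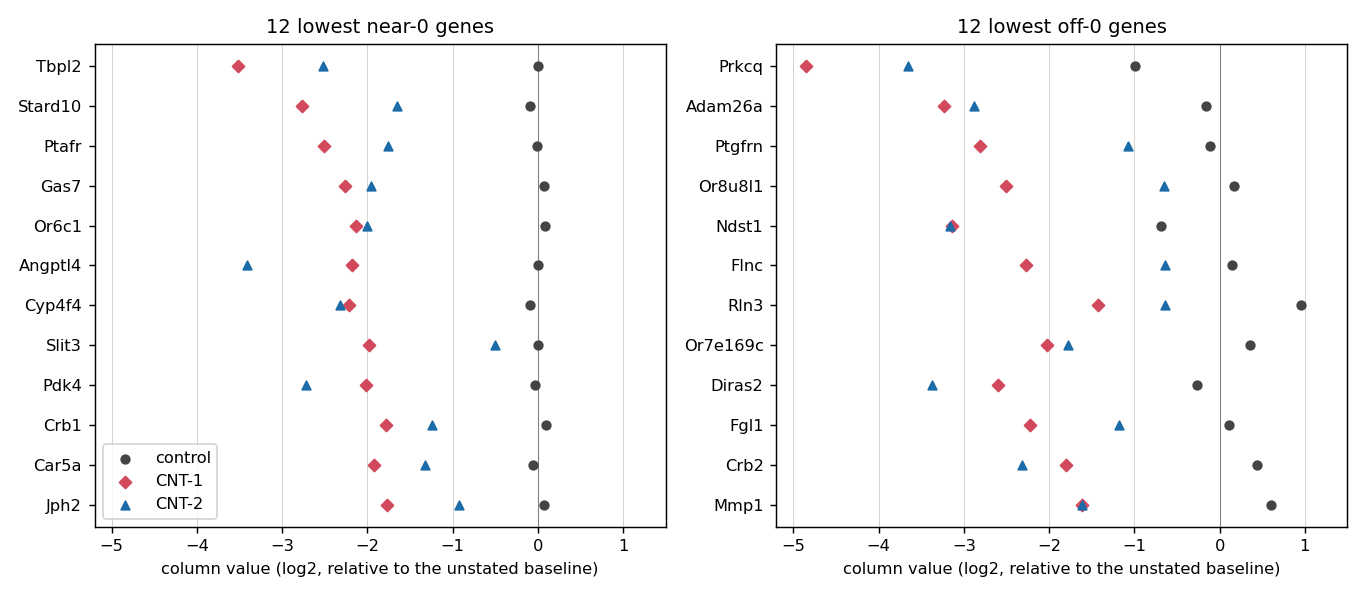
The values in the control, CNT-1 and CNT-2 columns (presumed log2, centred by the authors) are plotted for the 12 genes with the lowest CNT-1 minus control in each of the near-0 and off-0 classes, 1 row per gene. Near-0 genes such as Tbpl2 start at 0 in the control and end at -3.52 in CNT-1, while off-0 genes such as Rln3 start at 0.96 in the control.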

How the data were processed

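NR8383 cells were measured in 3 columns, control, CNT-1 and CNT-2, of 41103 probes each. The log2 values were deposited by the authors, and the submitters' processing notes name version 10.7.3.1 of Agilent Feature Extraction. The sources used here do not state their base, baseline, normalization or direction, nor how many arrays a column stands for, and base 2 was presumed. The series' design names an n of 4 but not its unit. The number of arrays limits the precision.

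CNT-1 minus control was computed per probe and averaged over the probes of a platform symbol (Python 3.11.15, pandas 2.3.3, numpy 2.4.6). Symbols were updated from RefSeq's GRCr8 table, 17415 probes by accession, 3113 by current symbol and 396 by synonym, with 8 unmatched. No low-value filter was possible on centred values. Counting was checked on simulated shifts well past the threshold. Such shifts were bound to be counted, so the check bears on the counting alone and not on the noise of the data. Members and the 46 lists were chosen with earlier results of these data known. Named are, per side, the 12 farthest near-0, the 8 farthest off-0 and the 10 farthest genes with at least 2 probes of 1 sign, each list's members past the threshold and its 3 farthest, and the reference genes. Other list members were chosen after their values were seen, and not every gene of the rule is printed. Alternatives changed the centring, normalization, window, probe summary, names and threshold.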

Additional observations from a re-analysis of the deposited data

Results flagged for a closer look

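The 27 Fos, Jun, Egr and MAP kinase phosphatase genes, which are switched on within minutes of many stimuli or hold such signals in check, had a median difference of -0.24 for CNT-1 and 0.85 for CNT-2. The medians have opposite signs, share the control column and rest on 1 column each, so the difference between them was not tested.

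The 20080 gene-type probes without a gene symbol were not used above. In the CNT-1 column 353 of them stood at least 1 log2 unit above the baseline and 383 at least 1 below it, against 118 and 0 in the control column. Of the 20932 named probes 323 and 278 did so in the CNT-1 column, against 98 and 0 in the control column. The contrast between the columns was thus not particular to probes without a symbol.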

How the results depend on the processing

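No paired analysis was possible because each group had 1 column, and for the same reason leaving out a column was impossible. Signal over background is not known for these centred values, so no limit of detection is given.

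With quantile normalization 602 genes were higher and 710 lower than in the control, in place of 184 and 343, with 327 near-0 genes higher and with 252 off-0 genes higher and 568 lower. That setting forced columns of unlike spread to 1 distribution, the SD over named probes being 0.149 in the control, 0.375 in CNT-1 and 0.887 in CNT-2. With a threshold of 0.6 there were 582 higher and 980 lower, 372 higher and 372 lower among near-0 genes, and 189 higher and 545 lower among off-0 genes. Restricting to genes with at least 2 probes left 23 higher and 36 lower, 14 and 11 among near-0 genes, and 1 and 8 among off-0 genes, since fewer genes were counted. With near-0 probes only, 118 genes were lower. A window of 0.05 gave 58 lower near-0 and 99 higher off-0 genes, and a window of 0.2 gave 171 higher near-0 and 9 higher off-0 genes. Without background-like probes 30 off-0 genes were higher. Without subtracting the control 198 genes were lower, and 120 off-0 genes were higher and 94 lower. The other counts stayed within 1.5 times.

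The TGF-beta and EGF list (-0.11) turned to 0.059 as a mean of members and to 0.10 after quantile normalization, which also turned Tgfa from -1.21 to 0.13 and Ndst1 from -2.44 to 0.16. Over genes with at least 2 probes the chemokine median turned from 0.13 to -0.10 and the Fos and Jun median from -0.24 to 0.46. The cause was not tested. Of 89 named genes past the threshold 72 were past it in every setting that gave a value, 52 of 54 near-0 and 16 of 26 off-0 genes. Without subtracting the control a near-0 gene could move by at most 0.1, so the gap between the classes was partly built in. The sterol synthesis medians stayed above 1 in every setting.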

Other observations

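Several near-0 genes outside the lists encode surface receptors, signals and enzymes of immune cells, and the genes in this paragraph were chosen after their values were seen. Higher in CNT-1 were Edn1, the vasoconstrictor endothelin (1.82), Cd200, a ligand that restrains macrophages (1.72), the chemokine receptors Ccr6 (1.52) and Cxcr1 (1.43), Rgs1, which damps such receptors (1.29), and Il7, a lymphocyte growth factor (1.29). Hsd11b1, which regenerates active glucocorticoid, differed by 1.19 ± 0.06 (SD, 2 probes), and G0s2, an inhibitor of fat breakdown, by 1.01 ± 0.10 (SD, 2 probes).

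Lower were Fut7, which makes selectin ligands (-1.56), Selenop, a selenium carrier (-1.46), Bmf, a death-promoting protein of the Bcl family (-1.37), Rara, a retinoic acid receptor (-1.23), Fbxo32, a ubiquitin ligase subunit (-1.20), Ccr2, the receptor for Ccl2 (-1.05), Il6r (-1.05) and Mfge8, a bridge between phagocytes and dying cells (-1.04). Icam2, an adhesion protein, differed by -1.08. These are values of 1 column against 1 column and were not tested.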
